A study of Mus musculus with 23 samples.

Results

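KPC organoids were compared with KC organoids, both grown for 13 days in floating collagen gels and both labelled as the second batch, the labels not saying whether culture, preparation or sequencing set the batches. The members were chosen by their labels for genotype, matrix, day and batch, which gave 3 KPC and 3 KC libraries of the 23 libraries in the series. The study grew organoids from single tumor cells of mouse pancreatic ductal adenocarcinoma and sequenced bulk RNA from the 3′ ends of transcripts. The KC line (mouse 9591) carried Ptf1aCre/+, and the KPC line (mouse 14390) carried Pdx1Cre/+ and Trp53 floxed on both copies. Both lines shared a further engineered allele, and each Cre was driven by the promoter of a pancreatic progenitor gene. Each genotype was represented by 1 line, so the Trp53 deletion, the Cre driver and the line itself cannot be told apart. The labels number the replicates without saying that they were separate cultures, so p-values measure only the spread between replicate libraries, which may be technical. That spread was pooled over the conditions of all 23 libraries in the series. A further 5 KC libraries of the same line, matrix and day came from the first batch and were set beside them to show where the KPC levels fell among 8 KC libraries.

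The p53 protein is a transcription factor that is stabilised after DNA damage or oncogene activity and turns on genes for cell cycle arrest, cell death and repair. The Cdkn2a locus acts beside it: p16INK4a inhibits the cyclin D kinases and p19ARF holds back Mdm2, the ubiquitin ligase that degrades p53. In the pancreas, loss of p53 or of the Cdkn2a locus is a common route to invasive carcinoma.

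The 6 libraries held between 1487295 and 1845921 counts. Of 27207 genes in the table, 11144 passed the filter on low counts and were tested with edgeR. At an adjusted p under 0.1, 2223 of them (19.9%) were called, with 1068 higher (9.58%) and 1155 lower (10.4%) in KPC. The numbers of called members in the lists below are to be set beside these shares. With library size alone in place of TMM scaling, 1265 were higher and 598 lower, and that scaling moved the median log2 fold change of all genes from 0.01 to 0.13. A fold change of at least 2 was reached by 415 genes that were higher and 391 that were lower. The KC libraries themselves differed between batches at 4162 genes (37.3%), a comparison that shares the second-batch KC libraries. Of the 2223 called genes, 1193 (53.7% of the called genes and 10.7% of those tested) also had all 8 KC libraries on the same side of the 3 KPC libraries. Counts of this kind in the lists below are to be set beside that 53.7%. Over all tested genes, 37.3% had no overlap between the 3 KPC and 3 KC libraries, and 16.6% had none between the 3 KPC and 8 KC libraries. A lack of overlap in single genes below is to be set beside those shares. The summed level of ductal epithelium markers was 13056 to 14799 CPM (counts relative to library size, scaled by TMM) in KC and 10388 to 12083 CPM in KPC. First-batch KC libraries held these markers at 10133 to 12390 CPM, a range that covers the KPC levels. Markers of other cell types were low in both groups, at 35.4 to 58.6 CPM for fibroblasts, 65.2 to 127 CPM for leukocytes and at most 19.2 CPM for endothelial, acinar or endocrine cells. Of the ductal markers, Cldn4 was at 0 in the KC libraries. In bulk RNA, fewer cells of a type and less RNA per cell cannot be told apart.

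Trp53 was lower and the Cdkn2a and Cdkn2b genes were higher in KPC. Trp53 (chr11:69580359-69591873, plus strand, GRCm38) was at 52.3, 48.8 and 48.0 CPM in the KC libraries and at 13.4, 10.8 and 12.7 CPM in the KPC libraries. The groups did not overlap, and the log2 fold change was −2.01 ± 0.38 (SE) with an edgeR adjusted p of 5.39e-04. The sources used here do not give which exons the floxed alleles lose, so a count at the 3′ end checks the genotype only in part. Pdx1, the gene whose promoter drives Cre in the KPC line, was not called (log2 fold change 0.16, edgeR adjusted p = 0.592).

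Cdkn2a (chr4:89274471-89294653, minus strand) was at 6.62, 5.58 and 11.99 CPM in KC and at 211, 235 and 202 CPM in KPC. This 26.5-fold difference (log2 fold change 4.73 ± 0.30 SE, edgeR adjusted p = 3.62e-11) left no overlap with any of the 8 KC libraries. RefSeq places starts of the gene at positions 89294619 and 89282192, and counts from the shared 3′ end cannot tell the Ink4a transcript from the Arf transcript. Cdkn2b (chr4:89306299-89311039, minus strand), which encodes the related inhibitor p15INK4b, was at 15.9, 15.3 and 11.99 CPM in KC and at 133, 152 and 156 CPM in KPC. Its fold change was 10.2 (edgeR adjusted p = 3.14e-10), again without overlap. Mtap (chr4:89137122-89181081, plus strand), the neighbouring gene for methionine salvage, was at 128, 110 and 121 CPM in KC and at 206, 206 and 204 CPM in KPC, a 1.71-fold difference (adjusted p = 5.96e-05). All 3 listed genes of the locus that were tested were thus higher, while Dmrta1, also listed, was at most 0.697 CPM in either group and was not tested. Gm12602, 146 kb from Cdkn2a, and Wincr1, 190 kb away, were not called (log2 fold changes 0.24 and 0.0017). Cdkn2c, a further member of the inhibitor family on another part of chromosome 4, went the opposite way, from a mean of 30.5 to 14.7 CPM (log2 fold change −1.05, adjusted p = 5.31e-04). Cdk4, the kinase these inhibitors bind, rose 1.59-fold (adjusted p = 0.00236), but its KPC levels overlapped with those of first-batch KC libraries.

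**Figure D1:**
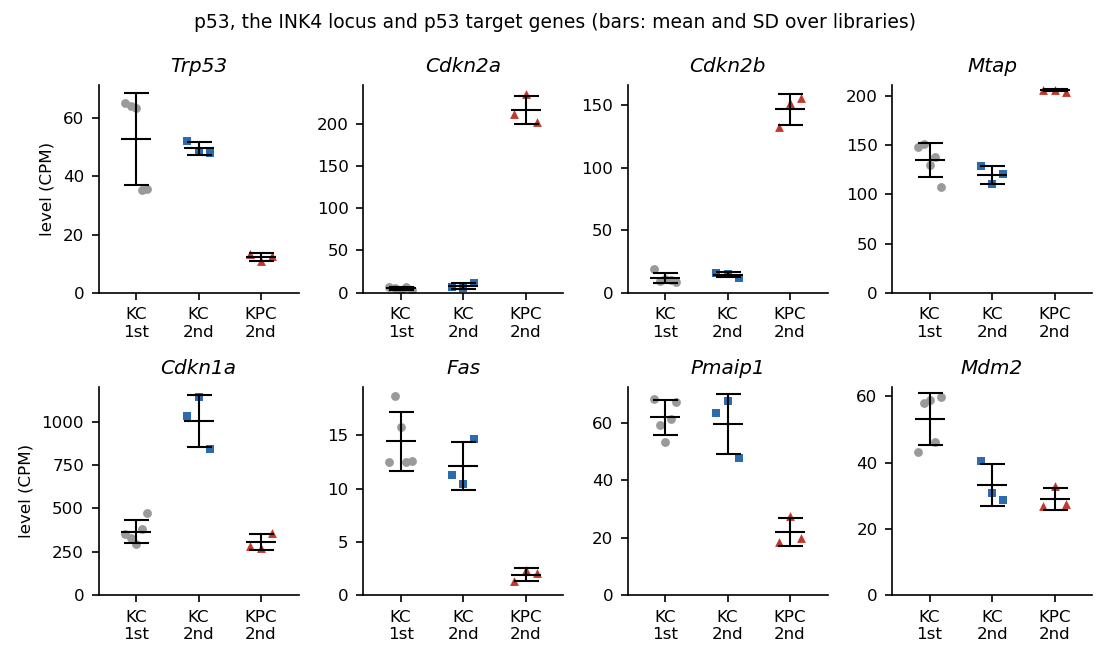
Levels of Trp53, Cdkn2a, Cdkn2b, Mtap and the p53 pathway genes Cdkn1a, Fas, Pmaip1 and Mdm2 in CPM (y axis) for the first-batch KC, second-batch KC and second-batch KPC libraries (x axis), each point 1 library and each bar the mean with its SD. Cdkn2a and Cdkn2b stand higher in the KPC libraries, Trp53, Fas and Pmaip1 lower, and the KPC points of Cdkn1a overlap with those of the first-batch KC libraries.

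Known p53 target genes were on the lower side in KPC, 31 of 38 having a log2 fold change below 0. Of 40 listed targets 38 were tested, 13 were lower, 1 was higher and 24 were not called, and the median log2 fold change was −0.41 beside 0.01 for all tested genes. Of the 14 called, 10 also had all 8 KC libraries on one side. Fas, the death receptor, was at 11.3, 10.5 and 14.7 CPM in KC and at 1.28, 2.39 and 2.11 CPM in KPC. It fell 6.06-fold (edgeR adjusted p = 3.19e-05) with no overlap. Pmaip1, which encodes the BH3-only protein Noxa, fell from 63.6, 67.6 and 48.0 CPM to 18.5, 27.5 and 20.1 CPM, a 2.70-fold difference (adjusted p = 5.64e-06). The arrest gene Btg2 (−0.76 on the log2 scale), the kinase gene Plk3 (−1.16), the Akt repressor gene Phlda3 (−0.81), the stress cytokine gene Gdf15 (−1.27) and Ccng1 (−0.74), encoding cyclin G1, were also lower, each without overlap with the 8 KC libraries. Cdkn1a, which encodes the arrest protein p21, was at 1032, 1143 and 841 CPM in KC and at 285, 271 and 357 CPM in KPC (log2 fold change −1.72, edgeR adjusted p = 1.26e-08). The first-batch KC libraries held it at 292 to 475 CPM, so the KPC levels overlapped with those of the same KC line in another batch. Mdm2, also a target and the ligase that degrades p53, was not called (−0.19, edgeR adjusted p = 0.562). It was called lower with all 8 KC libraries (edgeR adjusted p = 0.0219), a fit that mixes batch with line differences. Of 9 tested regulators of p53, Cdkn2a included, 3 were higher, 1 (Trp53 itself) was lower and 5 were not called. The damage kinase genes Atm (0.76, adjusted p = 0.0944) and Chek2 (1.16, adjusted p = 0.0623) were the other two that were higher, and each lost its call without KC replicate 1, KC replicate 2, KPC replicate 1 or KPC replicate 3, at log2 fold changes of 0.57 to 1.13, Atm also without KPC replicate 2 (0.60). Chek2 lost its call with all 8 KC libraries as well (0.48, adjusted p = 0.331), and Atm with DESeq2, with DESeq2's size factors and with no filter (0.73 to 0.74).

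Most of the genes that separated the groups furthest were near 0 in one of them. Among called genes with at least 20 CPM in the higher group, the 10 that rose most were Cyp1b1, Igf2bp1, Peg3, Sgce, Nkx6-3, Cdkn2a, Cldn7, Igf2bp3, Dusp22 and Rps4l. Igf2bp3 (chr6:49085223-49214957, minus strand), an oncofetal RNA-binding protein that is repressed in most adult tissues, was at 1.99, 2.09 and 3.998 CPM in KC and at 59.4, 72.4 and 66.5 CPM in KPC. The difference was 23.9-fold (edgeR adjusted p = 6.16e-10). Its relative Igf2bp1 had 3 counts over the KC libraries and 232 over the KPC libraries, a ratio of 67.0 with a 95% counting interval of 22.6 to 327 per depth. The fitted log2 fold change of Igf2bp1 moved from 5.93 to 6.79 without KC replicate 1, which held 2 of those 3 counts. Igf2bp2, the third member of the family, is expressed in adult tissue and differed 1.35-fold, at 39.4 ± 5.45 CPM in KC and 53.1 ± 2.49 CPM in KPC (SD, n = 3, edgeR adjusted p = 0.0948). That call was lost without any single library other than KC replicate 3, at log2 fold changes of 0.32 to 0.46, and with all 8 KC libraries.

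Peg3 (chr7:6703892-6730431, minus strand), a paternally expressed zinc finger gene, had 5 counts over the KC libraries and 279 over the KPC libraries, a ratio of 48.3 (interval 20.5 to 150). Sgce, another paternally expressed gene, had 2 against 113 counts, a ratio of 48.9 (13.2 to 409), and its fitted value moved from 5.42 to 8.39 without KC replicate 1. Of 24 listed oncofetal and imprinted genes, 11 passed the filter on low counts, 6 of them being higher and 1 lower, and 3 were higher without KC replicate 2 or without KPC replicate 1. Since nearly silent members passed only through the group in which they were high, this count is a description of those that were measurable. Nkx6-3, a gastric homeobox gene, had 6 against 288 counts (ratio 41.6, interval 18.9 to 114) and ranged from 33.8 to 90.7 CPM among the KPC libraries. Cyp1b1, a cytochrome P450 for xenobiotics and estrogens, had 1 against 128 counts, and without KC replicate 1 its fitted log2 fold change moved from 6.41 to 8.56. Rps4l had 0 against 149 counts, at least 14.3-fold higher by a floor of 3 counts per library. It is annotated as a transcribed processed pseudogene, so its reads may be shared with close copies. Dusp22, a dual specificity phosphatase gene, had 5 against 115 counts (ratio 19.9, interval 8.30 to 62.5).

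Pigr, Fhl1 and mucosal genes stood at the other end. Pigr (chr1:130826684-130852249, plus strand), the receptor that carries polymeric IgA across epithelia, was at 43.7, 40.4 and 33.3 CPM in KC and at 0.639, 2.39 and 1.06 CPM in KPC. It fell 27.4-fold (edgeR adjusted p = 6.16e-10), and 42.2-fold without KPC replicate 2, the highest of the KPC libraries. Fhl1 (chrX:56731787-56793346, plus strand), a LIM domain protein of muscle and epithelia, was at 248, 246 and 222 CPM in KC and at 12.8, 17.95 and 19.5 CPM in KPC, a 14.1-fold difference (adjusted p = 3.14e-10). First-batch KC libraries held Fhl1 at 66.0 to 124 CPM, lower than the second-batch KC libraries and still above all KPC libraries. The other 8 were Mtus2, Lypd3, Snord118, Cyp4f14, Tff2, Muc3, C4bp and Ly6m, with log2 fold changes from −4.56 to −3.27. Of these, Ly6m lost its call when all 8 KC libraries were used (log2 fold change −1.996, edgeR adjusted p = 0.128). Without KPC replicate 2, Mtus2 moved to −6.12, Muc3 to −4.37 and C4bp to −3.91. Snord118 is a small nucleolar RNA that begins just past the annotated end of Tmem107 on the same strand, so its reads may belong to longer transcripts of that gene.

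**Figure D2:**
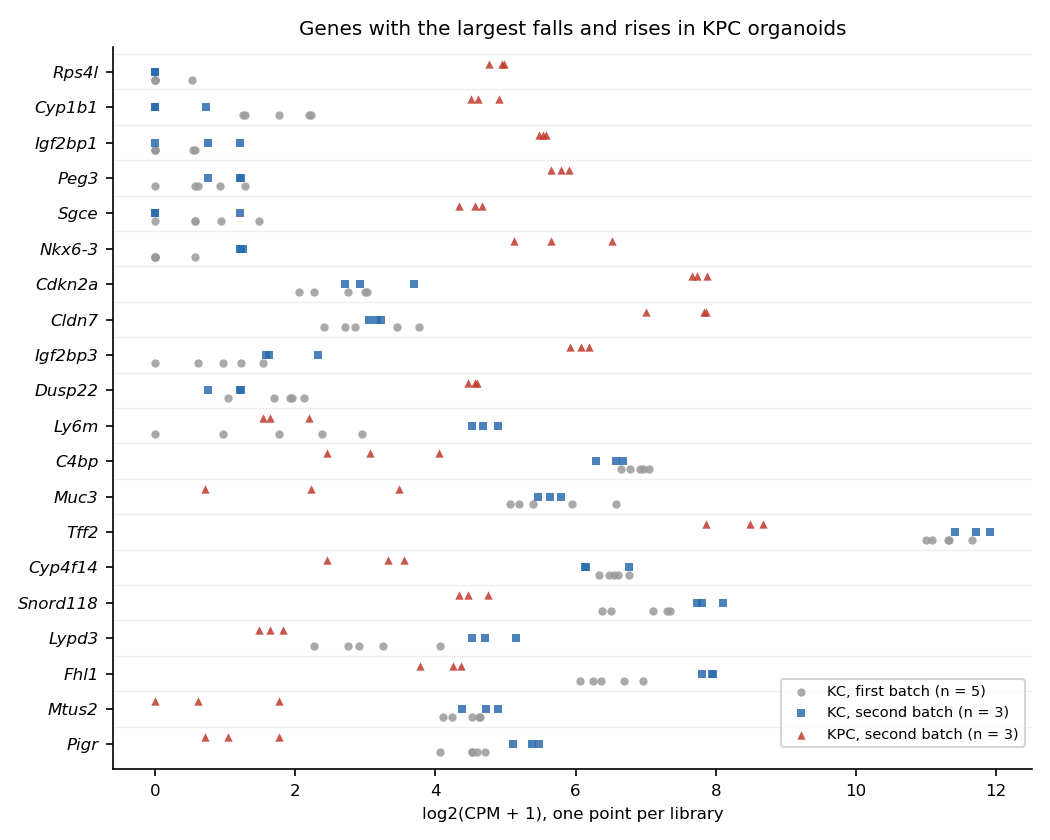
Level of the 20 genes with the largest differences, as log2(CPM + 1) in each library, for first-batch KC, second-batch KC and second-batch KPC organoids. The 10 genes that were higher sit near 0 in nearly all KC libraries, with Cdkn2a and Cldn7 at a low level there, and Ly6m is the gene that fell whose first-batch KC libraries lie among the KPC libraries.

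Genes on chromosome 6 were shifted as a group. Over the 531 genes tested here the median log2 fold change was 0.39, and 167 of them (31.5%) were higher while 23 were lower. Relative to the KC mean, the median over the chromosome was 0.37, 0.40 and 0.34 in the KPC libraries and −0.006, 0.015 and 0.009 in the KC libraries. The shift ran along the whole chromosome: its 8 windows of 20 Mb had medians of 0.27 to 0.47, and the other 129 windows of the genome had medians of −0.35 to 0.23. The median of chromosome 14 was −0.21, with 12 of 381 genes higher and 86 lower. Igf2bp3, Sgce and Rps4l of the leading genes also lie on chromosome 6, and the chromosome is given with other such genes below. The part of this shift in single gene results was not tested.

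**Figure D3:**
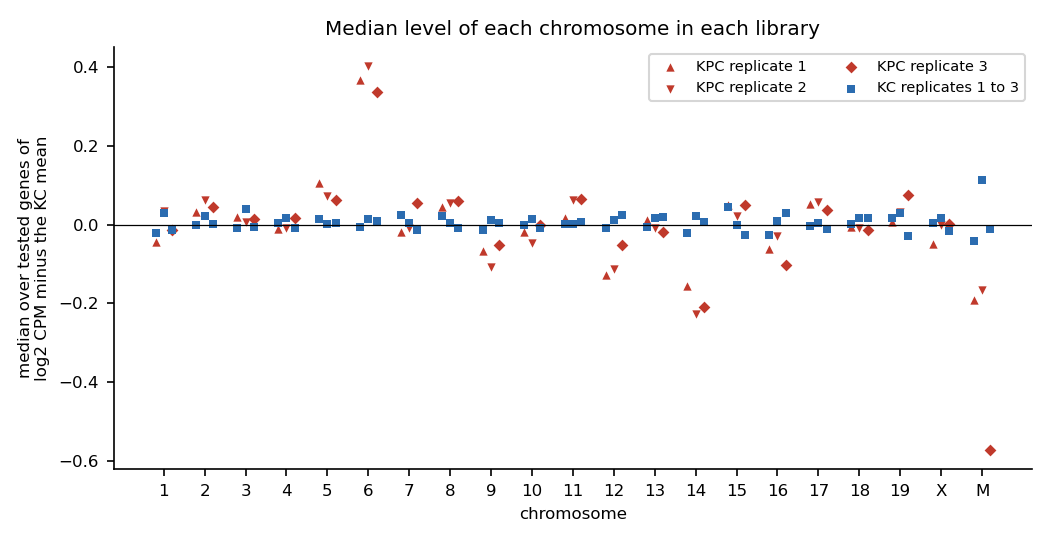
Median over the tested genes of each chromosome (x axis) of log2 CPM minus the mean of the 3 KC libraries (y axis), for each of the 6 second-batch libraries. The 3 KPC points of chromosome 6 lie at 0.34 to 0.40, above those of every other chromosome, and the KC points lie near 0.

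Glycolysis and hypoxia genes were lower in KPC. Glycolysis breaks glucose down to pyruvate and lactate, and the same enzymes, transporters and mitophagy genes are targets of the hypoxia-inducible factors, which bind ACGTG and GCGTG cores beside their start sites. Of 40 listed genes, 37 were tested, 29 were lower and 8 were not called, and the median log2 fold change was −0.87. None was higher: 0 were called by edgeR, 0 reached an unadjusted p under 0.05 and 0 were called by DESeq2, while 2 were higher when all 8 KC libraries were used. Of the 29, 24 had all 8 KC libraries above the KPC libraries, and between 22 and 30 were called over the alternatives. In the KC line, 11 of these genes were higher and 10 lower in the second batch than in the first, with a list median of −0.02. Of the 29, 19 were called in all 14 alternatives.

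The RefSeq windows of 250 bases before the start of 2 genes of this list are shown because these genes fell most and carry the cores, capitals marking ACGTG in Slc16a3 (chr11:120948817-120949066, plus strand) and GCGTG in Pfkp (chr13:6648772-6649021, minus strand), both in build GRCm38.p6 and read 5′ to 3′ on the strand of the gene. The RefSeq start of Slc16a3 lies 587 bases inside the gene as GENCODE M21 places it.
Slc16a3: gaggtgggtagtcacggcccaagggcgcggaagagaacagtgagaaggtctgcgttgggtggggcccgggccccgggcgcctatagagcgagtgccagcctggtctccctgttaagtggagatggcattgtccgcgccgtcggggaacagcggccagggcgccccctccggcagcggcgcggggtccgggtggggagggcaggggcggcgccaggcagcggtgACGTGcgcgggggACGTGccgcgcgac
Pfkp: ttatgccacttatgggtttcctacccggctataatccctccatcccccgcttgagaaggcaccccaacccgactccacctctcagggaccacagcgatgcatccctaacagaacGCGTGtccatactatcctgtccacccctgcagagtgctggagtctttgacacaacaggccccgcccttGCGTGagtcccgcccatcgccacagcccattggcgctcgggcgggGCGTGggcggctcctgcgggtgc
On either strand, ACGTG stood in 14 of 26 called members with a window (53.8%), in 4 of 7 other tested members, in 22.6% of 8541 tested genes and in 17.3% of 20559 genes. GCGTG stood in 15 of the 26 (57.7%) and in 47.5% of tested genes, and either core in 21 of the 26 (80.8%), in 6 of the 7 others and in 58.9% of tested genes. A match describes the letters of a window and is not a site in use.

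Slc16a3, which encodes the lactate exporter MCT4, was at 144, 132 and 102 CPM in KC and at 33.9, 6.58 and 20.1 CPM in KPC. It fell 6.27-fold (edgeR adjusted p = 1.22e-05), and its KPC libraries spread widely without reaching any KC level. Pfkp, the platelet-type phosphofructokinase gene, fell from 183, 209 and 166 CPM to 33.9, 29.9 and 37.5 CPM, a 5.49-fold difference with no overlap (adjusted p = 3.22e-10). The oxidase gene Ero1l fell by 2.29 on the log2 scale, the aldolase gene Aldoc by 2.22, the mitophagy gene Bnip3 by 1.90, the prolyl hydroxylase gene Egln3 by 1.76 and Pdk1, whose product inhibits pyruvate dehydrogenase, by 1.45. Ldha, one of the most abundant members, was at 3894, 4001 and 3534 CPM in KC and at 2384, 2181 and 2425 CPM in KPC, a 1.64-fold difference (adjusted p = 0.00105). Hk2, the first enzyme of the pathway, fell 1.82-fold although it lies on chromosome 6 (adjusted p = 0.00616). Car9 (−1.12), encoding a carbonic anhydrase, and Vegfa (−0.87), encoding an angiogenic factor, are widely used as hypoxia markers and were lower as well. Gapdh, on chromosome 6, Pgk1 and Pgam1 have many processed pseudogenes, and their counts are uncertain. The transcripts of the factors themselves, Hif1a (0.21, adjusted p = 0.469) and Epas1 (0.56, adjusted p = 0.247), were not called. Of 80 tested respiratory chain genes, 3 were higher and 5 lower (3 without KC replicate 1, KC replicate 2, KPC replicate 1 or KPC replicate 2), with a median of 0.04. The higher count was 1 when any library other than KPC replicate 3 was left out, and the balance turned to 10 higher and 2 lower with library size alone.

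**Figure D4:**
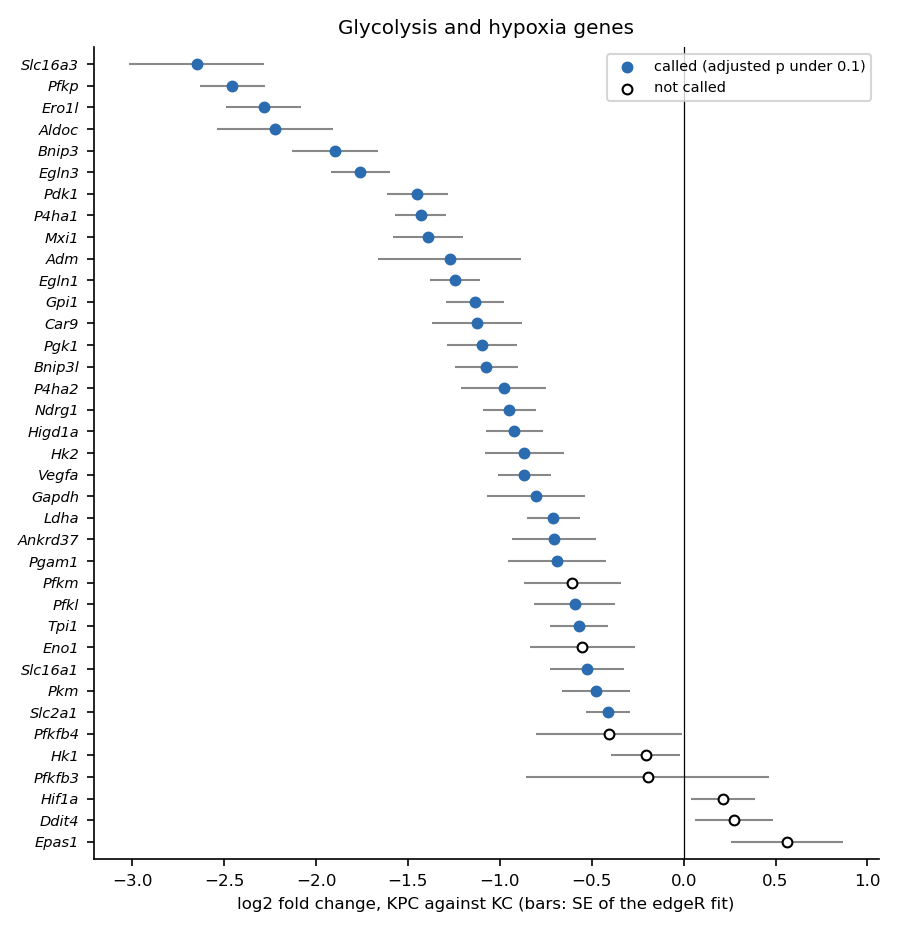
Log2 fold change of KPC against KC with its SE (x axis) for each of the 37 tested glycolysis and hypoxia genes (y axis), filled points being called by edgeR at an adjusted p under 0.1. The 29 filled points all lie below 0, with Slc16a3 and Pfkp lowest.

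Mitotic genes were higher in KPC by modest folds. All 67 listed G2/M genes were tested, 30 were higher, and the median log2 fold change was 0.66, with 65 of 67 above 0. By edgeR 0 were lower, 0 at an unadjusted p under 0.05 and 0 by DESeq2. Of the 30, 16 had all 8 KC libraries below KPC, where 53.7% of all called genes had them on one side. The count of genes called higher ran over the alternatives from 18 without KC replicate 1 to 47 in the fit of the 6 libraries alone. Such genes carry CCAAT boxes for NF-Y and TTTGAA elements for the DREAM and MuvB complexes near their starts. The windows of Ect2 (chr3:27153879-27154128, minus strand, GRCm38.p6), the member with at least 10 CPM that rose most, and of Cdc20 (chr4:118437344-118437593, minus strand) are shown with those letters in capitals.
Ect2: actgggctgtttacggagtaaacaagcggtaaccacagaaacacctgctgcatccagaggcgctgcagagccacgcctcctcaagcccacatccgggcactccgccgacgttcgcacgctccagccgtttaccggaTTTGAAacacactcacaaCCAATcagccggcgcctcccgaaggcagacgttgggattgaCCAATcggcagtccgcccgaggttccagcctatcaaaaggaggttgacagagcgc
Cdc20: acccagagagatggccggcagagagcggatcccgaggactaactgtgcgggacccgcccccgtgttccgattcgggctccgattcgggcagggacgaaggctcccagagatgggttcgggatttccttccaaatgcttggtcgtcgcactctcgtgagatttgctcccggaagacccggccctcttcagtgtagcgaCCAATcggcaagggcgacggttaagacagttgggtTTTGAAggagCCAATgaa
On either strand, CCAAT stood in 17 of 26 called members with a window (65.4%), in 24 of 31 members that were not called (77.4%) and in 36.8% of tested genes, and TTTGAA in 42.3%, 32.3% and 10.3%. Called and uncalled members of the list both held these letters in larger shares than all tested genes.

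Ect2, the exchange factor that starts cytokinesis, was at 8.61, 13.9 and 9.996 CPM in KC and at 35.1, 31.7 and 26.9 CPM in KPC. It rose 2.87-fold (edgeR adjusted p = 2.57e-04) with no overlap with the 8 KC libraries. Cdc20, the activator of the anaphase-promoting complex, rose from 30.5, 19.5 and 22.7 CPM to 60.04, 49.7 and 53.8 CPM, a 2.24-fold difference (adjusted p = 0.00232). Stmn1, encoding the microtubule destabiliser stathmin, rose 2.26-fold (adjusted p = 0.0058) and Ccnb1, encoding cyclin B1, 2.06-fold (adjusted p = 0.00285), the latter overlapping with first-batch KC levels. Mki67, the common proliferation marker, was not called (0.33, adjusted p = 0.562). Of 55 tested S phase genes, 18 were higher (9 without KPC replicate 1), with a median of 0.48, but only 4 of the 18 had all 8 KC libraries on one side. Again 0 were lower by edgeR, 0 at an unadjusted p under 0.05 and 0 by DESeq2. In the KC line, 17 of these S phase genes were lower in the second batch than in the first. Orc6, a subunit of the origin recognition complex, was at 29.1, 32.1 and 31.3 CPM in KC and 56.2, 59.3 and 54.9 CPM in KPC, and Mcm7 of the replicative helicase differed 1.75-fold, both above all 8 KC libraries. Of 28 tested regulators of G1 and S phase entry, 8 were higher and 4 lower, of which 5 and 2 were called without KPC replicate 2. Leaving out KC replicate 1 or KC replicate 3 also left 5 higher, and leaving out KC replicate 2 left 2 lower. Ccnd2, which encodes cyclin D2 and lies on chromosome 6, was the most abundant of these, at 989, 1033 and 1110 CPM in KC and 2033, 1956 and 1921 CPM in KPC (1.89-fold, adjusted p = 7.28e-04).

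Genes that build ribosomes were higher in KPC. Of 72 listed Myc target and ribosome biogenesis genes, 29 were higher, 3 lower and 40 not called, the median being 0.46. All 8 KC libraries lay on one side for 15 of the 32 called, beside 53.7% of all called genes. In the KC line, 29 of these genes were lower in the second batch than in the first, and with all 8 KC libraries in the fit 21 were higher and 5 lower, with a median of 0.23. Rcl1, which takes part in processing of the small subunit RNA, rose from 7.95, 9.76 and 12.7 CPM to 28.1, 29.3 and 28.5 CPM, a 2.82-fold difference (edgeR adjusted p = 8.89e-06). Polr1a, the largest subunit of RNA polymerase I, rose 2.92-fold (adjusted p = 1.86e-04) and the RNA methyltransferase gene Nop2 2.28-fold (adjusted p = 4.75e-04), both on chromosome 6. Mybbp1a (1.21 on the log2 scale), Dkc1 (0.82), encoding dyskerin, and Mrto4 (0.91) lie elsewhere and were also higher, without overlap with the 8 KC libraries. Myc itself was at 78.8, 65.5 and 72.0 CPM in KC and at 111, 71.2 and 81.3 CPM in KPC. These levels overlapped, and the gene was not called (0.28, adjusted p = 0.35). Of 81 cytosolic ribosomal protein genes, 2 were higher, and neither of them was called in every alternative. By edgeR 0 were lower, 0 at an unadjusted p under 0.05 and 0 by DESeq2, while 9 were lower with all 8 KC libraries.

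Secretory and mucosal defence genes were lower. Of 44 listed genes, 23 were tested, 15 of them were lower (9 without KPC replicate 1) and 8 were not called, with a median of −0.80. By edgeR 0 were higher, 0 at an unadjusted p under 0.05 and 0 by DESeq2. Of the 15, 9 had all 8 KC libraries above KPC. Tff2, a trefoil peptide that protects gastric mucosa, was at 3859, 3340 and 2736 CPM in KC and at 359, 232 and 409 CPM in KPC, a 9.93-fold difference (edgeR adjusted p = 3.15e-07). Tff3, another trefoil peptide gene, fell from 1752, 1506 and 1503 CPM to 254, 280 and 695 CPM, a log2 fold change of −1.95 and of −2.57 without KPC replicate 3, its highest KPC library. Gkn3 (−1.80), a gastrokine gene on chromosome 6, and Dmbt1 (−1.42), encoding a mucosal scavenger receptor protein, fell as well. Of 33 tested genes of the classical subtype of pancreatic cancer, 14 were lower and 6 higher (median −0.25), and 14 of the 20 had all 8 KC libraries on one side. Spink4, a goblet cell protease inhibitor gene, fell 4.24-fold (adjusted p = 3.68e-04), and Galnt6 fell 5.07-fold with KPC levels that overlapped with first-batch KC levels. Capn9, a gastric calpain gene, went the other way with 2 counts over KC and 100 over KPC, a ratio of 43.3 (interval 11.7 to 363). Of 18 tested basal-like genes, 2 were higher and 3 lower, with 0 lower without KC replicate 2 or with library size alone and 1 lower without KC replicate 1, KPC replicate 1 or KPC replicate 2. Leaving out KC replicate 1, KC replicate 2 or KPC replicate 1 left 1 higher. Sprr1a, a cornified envelope gene, was the most abundant of those called at 1654, 1868 and 1196 CPM in KC and 2545, 2379 and 2974 CPM in KPC (adjusted p = 0.0029).

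Claudins changed in opposite directions. Claudins are the membrane proteins that set the tightness of epithelial junctions. Cldn7 (chr11:69964779-69967885, plus strand) was at 7.28, 8.37 and 7.997 CPM in KC and at 128, 227 and 231 CPM in KPC, 24.7-fold higher (edgeR adjusted p = 3.62e-11). KPC replicate 1 held less of it than the other KPC libraries and still far more than any of the 8 KC libraries. Cldn6, an embryonic claudin, was at 2.65, 3.49 and 2.00 CPM in KC and at 21.7, 14.4 and 19.5 CPM in KPC (log2 fold change 2.75). Cldn3 rose from a mean of 5.64 to 36.1 CPM (2.67) with a spread of 21.1 to 55.7 CPM among the KPC libraries. Cldn18, the abundant gastric claudin, was at 2124, 2378 and 2073 CPM in KC and at 875, 671 and 622 CPM in KPC (adjusted p = 4.08e-06). Its first-batch KC levels of 763 to 990 CPM overlapped with those of KPC. Of 21 tested tight junction genes 5 were higher (3 without KPC replicate 1) and 1 lower, with a median of 0.07.

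Other epithelial genes showed the same mixture. Of 29 tested genes for adherens junctions, desmosomes and epithelial identity, 6 were higher and 6 lower, and 3 were lower without KC replicate 2, KPC replicate 1 or KPC replicate 2. With library size alone 2 were lower and with all 8 KC libraries 3. Ap1m2, the epithelial adaptor for basolateral sorting, rose 5.46-fold (edgeR adjusted p = 2.06e-04), and the membrane protease gene St14 and its inhibitor gene Spint1 rose 4.02-fold and 2.499-fold. Esrp1, an epithelial splicing factor gene, rose by 2.40 on the log2 scale and by 3.34 without KC replicate 3. Ehf, an epithelial Ets factor gene, fell 2.21-fold. Cdh1 (−0.11, edgeR adjusted p = 0.719), encoding E-cadherin, and the mesenchymal marker Vim (−0.02, edgeR adjusted p = 0.941) were not called. Of 47 tested genes for epithelial-mesenchymal transition, 5 were higher (10.6%) and 4 lower (8.51%), near the 9.58% and 10.4% of all tested genes. The higher count was 3 without KC replicate 2 and 2 without KPC replicate 2. With all 8 KC libraries, 4 were higher and 7 lower. Among the 47 genes, Spp1, encoding osteopontin, fell from 7383, 6679 and 6832 CPM to 3262, 2605 and 2733 CPM (edgeR adjusted p = 2.09e-06). Cald1, an actin-binding protein gene on chromosome 6, rose 2.504-fold.

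Msln, the surface antigen mesothelin, was at 226, 207 and 209 CPM in KC and at 716, 722 and 682 CPM in KPC. Of the 6 marker genes it had the smallest SE, at 3.30-fold higher (log2 fold change 1.72 ± 0.12 SE, edgeR adjusted p = 3.14e-10) and above first-batch KC levels of 218 to 274 CPM. The position of Msln is chr17:25748613-25754378 on the minus strand. Of 32 tested surface antigen genes, 4 were higher and 9 lower, or 6 and 6 with library size alone. Tspan1, a tetraspanin gene, rose 3.52-fold (adjusted p = 3.18e-05). Prom1, encoding the stem cell antigen CD133, fell 2.24-fold and Itgb4, a laminin receptor subunit gene, 1.86-fold, both below all 8 KC libraries. Ceacam1 fell 3.58-fold, but its first-batch KC levels of 61.2 to 89.8 CPM overlapped with KPC.

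Transcription factors of the endoderm moved both ways. Of 29 tested, 4 were higher (13.8%) and 6 lower (20.7%), beside 9.58% and 10.4% of all tested genes. With all 8 KC libraries, 5 were higher and 4 lower. Gata6 was at 46.4, 58.6 and 70.0 CPM in KC and at 124, 116 and 123 CPM in KPC, 2.07-fold higher (edgeR adjusted p = 3.19e-05). Its relative Gata4, on chromosome 14, fell from 40.4, 57.2 and 60.6 CPM to 12.1, 18.6 and 15.8 CPM, 3.38-fold lower (adjusted p = 1.86e-04). The pair of GATA factors thus changed in opposite directions with no overlap in either. Foxa1, a pioneer factor of foregut endoderm, rose 3.53-fold and Sox17, a factor of endoderm and biliary fate, fell 3.68-fold, both without overlap with the 8 KC libraries.

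Enzymes for xenobiotics and retinoids changed in both directions. Of 94 listed, 69 were tested, 22 were lower and 8 higher (median −0.28), and 20 of the 30 had all 8 KC libraries on one side. Ces2g, a carboxylesterase gene, was at 236, 181 and 187 CPM in KC and at 30.7, 27.5 and 29.6 CPM in KPC, 6.88-fold lower (edgeR adjusted p = 3.62e-11). Adh7, an alcohol dehydrogenase that oxidises retinol, fell 4.98-fold (adjusted p = 6.05e-07), and Nqo1, a quinone reductase under Nrf2 control, 3.26-fold (adjusted p = 2.34e-04). Adh1 had a log2 fold change of −3.15, and of −5.08 without KPC replicate 3. The retinoid genes went both ways: Rbp4, encoding the plasma retinol carrier, rose from 6.62, 7.67 and 8.66 CPM to 96.5, 69.4 and 71.8 CPM (10.3-fold, adjusted p = 3.73e-04), Ttr, encoding its partner transthyretin, rose 2.89-fold, and Rdh10, a retinol dehydrogenase gene, rose 2.09-fold. Aldh1a3 and Dhrs3 fell by 0.88 each on the log2 scale. Of 66 tested cholesterol and fatty acid genes, 10 were higher (6 without KC replicate 2) and 12 lower, or 9 and 5 with library size alone. The intestinal fatty acid carrier gene Fabp2 rose 4.07-fold while its liver relative Fabp1, on chromosome 6, fell 2.30-fold.

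Chemokines and immune genes changed in both directions as well. Of 23 tested chemokine and cytokine genes, 7 were lower and 3 higher. Their median log2 fold change was 0.25, on the other side of 0 from the majority of calls, and it was −0.12 with all 8 KC libraries. Cxcl5, a neutrophil attractant gene, was at 327, 264 and 182 CPM in KC and at 46.0, 41.9 and 37.5 CPM in KPC, 6.17-fold lower (edgeR adjusted p = 5.37e-07). Il1a, encoding an alarmin of epithelia, fell 4.25-fold (adjusted p = 1.44e-06), while Il33, another alarmin gene, rose 2.83-fold (adjusted p = 2.05e-06). Cxcl12, the ligand of Cxcr4 and a gene of chromosome 6, rose from 9.93, 8.37 and 11.99 CPM to 39.0, 52.7 and 43.8 CPM. Each of these 4 lay apart from all 8 KC libraries. Of 36 tested interferon and MHC class I genes, 7 were lower and 2 higher. H2-D1, a heavy chain gene, was at 876, 798 and 788 CPM in KC and at 321, 318 and 325 CPM in KPC (2.55-fold, adjusted p = 1.62e-09). Counts of H2-D1 and its near-identical relative H2-K1, which also fell, may be split uncertainly between them. The summed leukocyte markers stood at 94.1 to 127 CPM in KC and 65.2 to 84.96 CPM in KPC. In first-batch KC libraries they stood at 80.6 to 120 CPM, overlapping with KPC. Of the 7 leukocyte markers in the table, 5 held at most 3 counts in every library of each group, so the sums rest mostly on the others. Of the 2 that were tested Cd68 was lower, while Itgam, Fcer1g and Cd79a were at 0 in second-batch KC. The part of leukocytes in these differences was not tested.

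AP-1 and immediate early genes were lower in KPC. Of 26 tested AP-1 and immediate early genes, 16 were lower and 1 higher (median −0.55), and 10 of the 17 had all 8 KC libraries on one side. With all 8 KC libraries in the fit 9 were lower. In the KC line, 13 of these genes were higher in the second batch than in the first, and the list's median log2 difference between those batches was 0.42. Klf2, a factor induced by flow and by Erk5, was at 207, 201 and 171 CPM in KC and 41.5, 34.7 and 40.1 CPM in KPC (4.96-fold, edgeR adjusted p = 2.71e-08), and first-batch KC libraries lay between them at 67.2 to 110 CPM. Egr1 fell 2.18-fold and Dusp1, an Erk and p38 phosphatase gene, 1.72-fold. Of 62 tested YAP/TEAD and actin-linked genes, 15 were higher and 10 lower. The classic targets Ccn1 (0.84), Ccn2 (1.26) and Ankrd1 (1.04), the coactivator gene Wwtr1 (1.07) and the DNA-binding partner gene Tead2 (1.37) were all higher on the log2 scale, Ccn2 alone of these overlapping with first-batch KC levels. Crip1, a LIM domain gene of the same list, fell from 3219, 3072 and 2883 CPM to 969, 1155 and 960 CPM. Myh10, encoding non-muscle myosin IIB, rose by 3.78 on the log2 scale, with 3.19 without KC replicate 1 and 4.60 without KC replicate 3. Of 44 tested TGF-beta and BMP genes 2 were higher and 9 lower, and of 47 EGF, FGF, HGF and Wnt genes 7 were higher and 8 lower (5 without KC replicate 2). With all 8 KC libraries these counts became 6 higher and 6 lower, and 11 higher and 3 lower, and with library size alone 2 higher and 5 lower, and 7 higher and 4 lower. Met, the HGF receptor gene, rose 1.87-fold, and Wnt7a rose 4.10-fold, both on chromosome 6. Erbb3, encoding a receptor for neuregulins, fell 1.94-fold, with KPC levels that overlapped with first-batch KC levels.

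Ion transport genes, which move fluid into a lumen, held 9 that were lower (6 with library size alone) and 4 that were higher of 38 tested. Clca1, a secreted regulator of chloride channels, was at 3075, 3141 and 3501 CPM in KC and at 1053, 1450 and 1377 CPM in KPC, 2.504-fold lower (edgeR adjusted p = 1.98e-06). Aqp8, a water channel gene, fell from 153, 160 and 144 CPM to 30.0, 35.3 and 77.6 CPM. Ano1, the calcium-activated chloride channel gene, rose 1.72-fold, Clic6 6.12-fold and Scnn1a, a sodium channel subunit gene on chromosome 6, 5.13-fold. Kcnq1, a potassium channel gene, had a log2 fold change of −4.26, and of −6.24 without KPC replicate 1. All of these lay apart from the 8 KC libraries. Of 33 tested basement membrane and collagen receptor genes 6 were higher and 4 lower (1 without KC replicate 2 or KPC replicate 3, 2 without KC replicate 1, KPC replicate 1 or KPC replicate 2), the largest difference being that of Efemp1, encoding fibulin 3, which rose 3.20-fold. Of 31 tested matrix protease genes and inhibitors 3 were higher (9.68%) and 5 lower (16.1%), beside 9.58% and 10.4% of all tested genes. With library size alone, 3 were higher and 3 lower. Ctsl, encoding cathepsin L, was 1.77-fold higher and the disintegrin gene Adam15 1.79-fold lower. Of 47 tested unfolded protein and stress response genes 4 were higher and 14 lower (8 without KPC replicate 2), and 0 were higher without KC replicate 2 or KC replicate 3 and 2 without any 1 of the others. Among those lower were Stc2, which fell 3.71-fold, and Herpud1, which fell 1.85-fold.

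**Figure D5:**
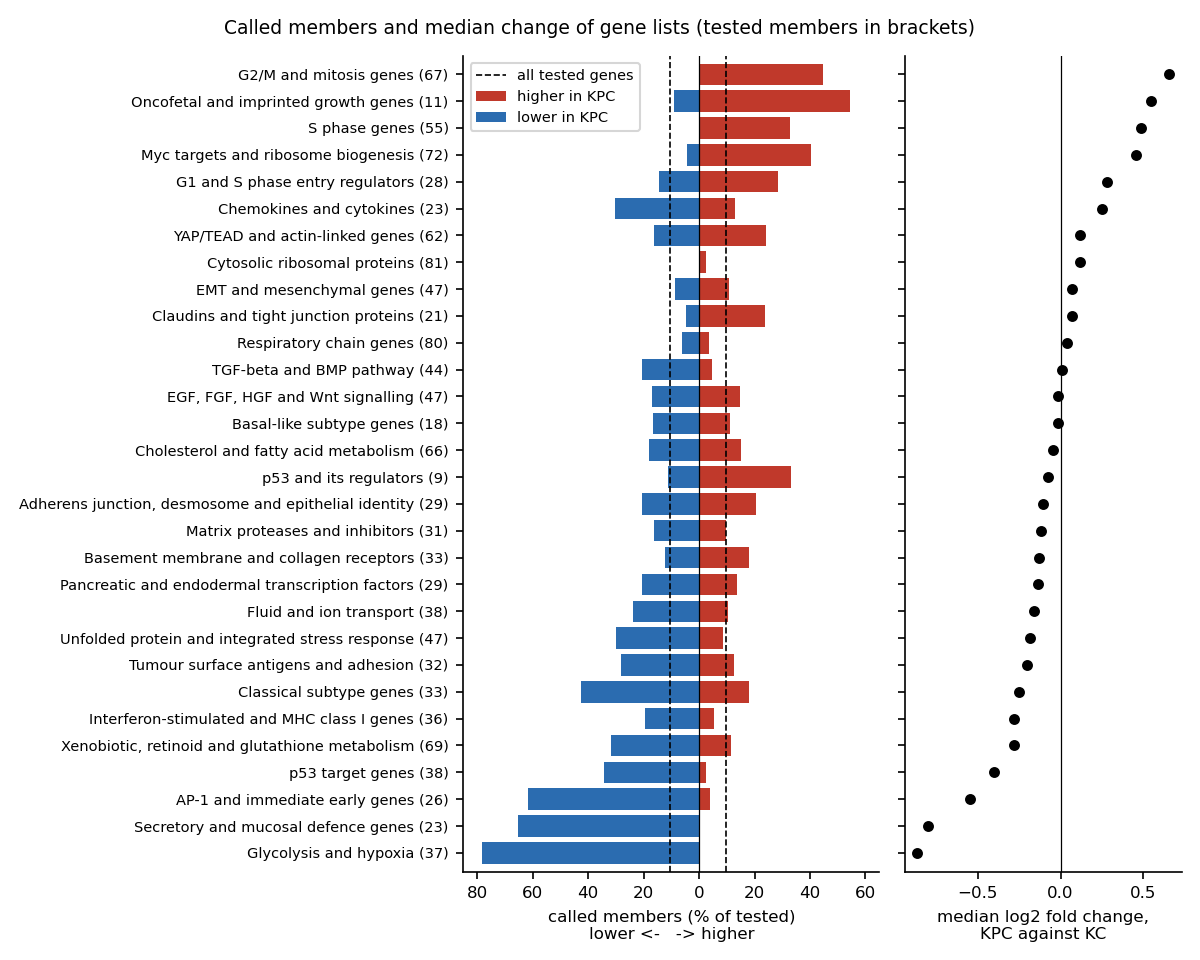
Share of the tested genes of each list called higher or lower in KPC, in percent (left), and the median log2 fold change of the list (right), with dashed lines at the values for all tested genes. Glycolysis and hypoxia (78.4% lower), secretory and mucosal defence (65.2% lower) and AP-1 genes (61.5% lower) stand on one side, and G2/M genes (44.8% higher) and Myc targets and ribosome biogenesis (40.3% higher) on the other.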

How the data were processed

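Per the labels and the study's methods, the authors primed RNA with oligo-dT, counted unique molecular identifiers per gene with the Drop-seq pipeline 1.0 on GRCm38 with GENCODE M25, and deposited raw counts for 23 libraries. The aligner and the use of strand are not given in the sources used here. Counts come from 3′ ends, so transcripts that share an end are counted together, and overlapping or near-identical genes may share counts. Every column was matched to a sample (0 were not).

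All 23 libraries were fitted together by condition with edgeR 4.0.16 (R 4.3.3, quasi-likelihood F-test, TMM, filterByExpr, which kept 11144 genes), and KPC was contrasted with KC of the second batch. Adjusted p-values are Benjamini-Hochberg values over all tested genes, called under 0.1, and log2 fold changes are from the fit. A prior count of 2 was added for the log2 CPM values of single libraries. CPM values use TMM-scaled library sizes. Counting intervals (95%, for a ratio of summed counts) and the floor of 3 counts cover counting error only. Tested on simulated counts for this comparison over 11144 genes, 65% of genes changed 2-fold and 96% of genes changed 4-fold were recovered. The changed genes were drawn only from those above a minimum mean level, so recovery at lower levels was not assessed. Of the simulated calls, 10 (5.85%) were false. An exact permutation test of 3 against 3 libraries cannot go below 0.1, so none was used for single genes.

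The members and gene lists were chosen with earlier results of these data known. Named were the 6 marker genes, the genes the genotypes alter, the 10 highest and 10 lowest log2 fold changes among called genes whose groups did not overlap and whose higher mean was 20 CPM or more, the 5 and 5 most changed with at least 1000 CPM, the 2 and 2 most changed of each list with at least 10 CPM, and the locus and families named. Symbols that mark predicted genes or pseudogenes (Gm with a number, Rik, -ps) were left out of the rankings by fold change. Those that met the rule of 20 CPM and no overlap were only counted (29). Pseudogenes with other symbols, such as Rps4l, stayed in. Other members given as examples were chosen after their values were seen. Ptf1a was not analysed here, and some genes that this rule names are not reported here.

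Gene positions are from GENCODE M21, and promoter windows of 250 bases from RefSeq for GRCm38.p6 (8541 of the tested genes matched). Alternatives were DESeq2 1.42.0, other scaling and filters, the 6 libraries alone with and without replicate numbers as a block, all 8 KC libraries, and each library left out. The fit with all 8 KC libraries had no batch term. Replicate numbers did not pair the samples.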

Additional observations from a re-analysis of the deposited data

Results flagged for a closer look

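The level of each named gene was checked for a library far from the rest of its group in the only group here of 4 to 10 libraries, the 5 first-batch KC libraries, and 11 of 127 genes had one, where a 95% critical value gives about 1 in 20 by its construction. Cdkn2b reached 19.01 CPM in 1 first-batch KC library, still under the KPC levels of 133 to 156 CPM. Adh1 reached 50.8 CPM, Adam15 82.5 CPM, Mdm4 23.3 CPM and Ap1m2 4.20 CPM in 1 such library each, and Il1a was lowest at 22.5 CPM. Among genes near 0 in the KC line, Capn9 reached 2.10 CPM, Nkx6-3 0.480 CPM, Rps4l 0.448 CPM, Trp63 0.479 CPM and Trp73 0.525 CPM, the last 4 of these being a single count in 1 library. In the comparison of KPC with KC of the second batch, these libraries entered only through the shared filter, scaling and estimate of spread. They also entered the statements on 8 KC libraries and the fit with all 8 KC libraries.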

How the results depend on the processing

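Against 2223 genes called, DESeq2 called 2048, DESeq2's size factors in edgeR 2246, no filter 2153, a minimum of 10 counts in every library 1567, the 6 libraries alone 3303 and all 8 KC libraries 2942, of which 1458 were shared. With the 6 libraries alone, genes called higher went from 30 to 47 for G2/M, from 18 to 31 for S phase, from 3 to 20 for the respiratory chain and from 2 to 23 for ribosomal proteins. Leaving out 1 library gave 1647 to 1794 calls. Leaving the genes of chromosome 6 out of the count, without a new fit, left 2033 called. The number of genes called higher was 1638 in the fit of the 6 libraries alone in place of 1068, and the number called lower was 598 with library size alone in place of 1155, where 67.9% of calls were higher in place of 48.0% and the median of all genes moved from 0.01 to 0.13. Asking in addition that all 8 KC libraries lie on one side, an alternative added after the data were seen, left 1193, with 584 higher and 609 lower. The cause of these differences was not tested. Of the 2223, 791 (35.6%) were called in all 14 alternatives in which they were tested.

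The replicate numbers did not pair the samples: deviations of same-numbered libraries correlated at −0.015, 0.015 and −0.040, and with the replicate number as a block in the fit of the 6 libraries 3198 genes were called.

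Among named genes that were not called, 3 changed sign. Usp7 became 0.23 with all 8 KC libraries. Atr became 0.044 with library size alone and 0.21 without KPC replicate 2, and leaving out 1 library gave −0.40 to 0.27. Mdm4 ran from −0.40 to 0.021 when 1 library was left out. Mdm2 became called lower with all 8 KC libraries, and Chek1 became called higher in 4 alternatives. With 3 libraries a group and 1487295 to 1845921 counts each, differences in genes under 10 CPM rest on few counts.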

Other observations

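Genes beside the deleted Trp53 alleles were examined after the values were seen. Within 1 Mb of Trp53, 53 genes were tested, 11 were higher, 4 were lower and the median log2 fold change was 0.24. Over the whole of chromosome 11, 99 of 897 tested genes were higher and 83 lower, with a median of 0.04. Of all tested genes, 9.58% were higher and 10.4% lower, with a median of 0.01. Whether the genes near Trp53 differed from the chromosome or from all genes was not tested. Wrap53, which lies 0.104 kb from Trp53, was higher (1.17, edgeR adjusted p = 0.0145), and so was Sat2 (1.76, adjusted p = 0.0225). Cldn7 lies 373 kb away and Myh10 764 kb away, so both of these genes, among those that differed most, share the region with the altered locus, as does Snord118 at 507 kb. Within 1 Mb of Cdkn2a, 7 genes were tested, Cdkn2b at 11.6 kb and Mtap at 93.4 kb were higher and the other 5 were not called. Whether position bears on these values was not tested.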
